A study of Danio rerio with 4 samples.

Results

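The cell-cycle and DNA replication genes of sorted zebrafish β-cells were followed through a set of 40 gene symbols, which names cyclins and cyclin-dependent kinases (CDKs), the proteins that license and copy DNA, and the proteins that build the spindle and divide the chromosomes. All 40 symbols were found in the deposited table by exact match and 0 were absent. The symbol rrm2 is carried by 2 Ensembl IDs, on chromosomes 19 and 20 of GRCz10, so the set gave 41 of the 22044 genes of the table. All 41 reached 10 normalised counts in 2 or more libraries and were tested.

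A cell that enters division first makes D-type cyclins, which bind CDK4 and CDK6, and then E-type cyclins, which bind CDK2. Origins of replication are licensed when ORC, Cdc6 and Cdt1 load the MCM helicase, DNA is copied with the sliding clamp PCNA, and Cdk1 with A- and B-type cyclins then drives mitosis, in which Aurora and Polo kinases, kinesins and the chromosomal passenger complex move and separate the chromosomes. The transcripts of most of these proteins are low in resting cells and appear as cells cycle, which is why pcna and mki67 serve as markers of cycling cells. β-cells of grown vertebrates divide seldom, and those of zebrafish add new cells by division while the fish grow.

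The mRNA of β-cells was sequenced in 2 libraries from WT fish, which carried Tg(ins:mKO), and 2 libraries from fish that carried Tg(ins:IL1B) and Tg(ins:mKO), here called Tg(ins:il1b), all 3 months old. In Tg(ins:il1b) fish the insulin promoter drives the mature form of zebrafish il1b in β-cells, and the line was raised from a single founder whose transgene also marks the lens with cryaa:mCherry. All libraries share the insulin-driven mKO reporter, a fluorescent protein in β-cells, and the cells were taken by FACS from dissociated primary islets. Whether replicate libraries stem from separate fish or from 1 pool is not given in the sources used here, and a p-value therefore reflects only how far these samples spread, which may be technical.

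Reads in genes numbered 28524617 to 35637508 per library, and the transgene was visible in the labelled libraries, with il1b at 11 and 1.9 normalised counts in WT against 587911 and 423851 in Tg(ins:il1b). Here and below the pairs of values are replicate 1 and then replicate 2, and a normalised count is the read count of a gene divided by a factor of its library, with 1 read worth 0.918 to 1.07. The somatostatin gene sst1.1, a δ-cell hormone, had 92133 and 2059 in WT against 45219 and 1076220 in Tg(ins:il1b). Tg(ins:il1b) replicate 2 had the highest value of this hormone, but the WT libraries also lay far apart in it. In the cell-cycle genes Tg(ins:il1b) replicate 2 stood apart from the other 3 libraries. Each result below is therefore given by library, and the counts without Tg(ins:il1b) replicate 2 are given as well.

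Most cell-cycle genes were at a similar level in both WT libraries and in Tg(ins:il1b) replicate 1, and were low in Tg(ins:il1b) replicate 2. Of the 41 genes, 32 had their lowest value in Tg(ins:il1b) replicate 2, against 27.2% of all 18504 genes tested. Only 2, ccne2 and gmnn, were lowest in Tg(ins:il1b) replicate 1 (24.8% of all genes), 5 were lowest in WT replicate 1 (23.3%) and 2 in WT replicate 2 (24.1%). In Tg(ins:il1b) replicate 1, 18 members had the highest value of the 4 libraries (23.1% of all genes). The 2 libraries of the transgenic genotype therefore lay at opposite ends of the range for many members. In bulk samples, fewer cells of a type and less RNA per cell cannot be told apart, and this holds for cycling cells as for any other. The part in these values of cells that express sst1.1 was not tested.

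**Figure D1:**
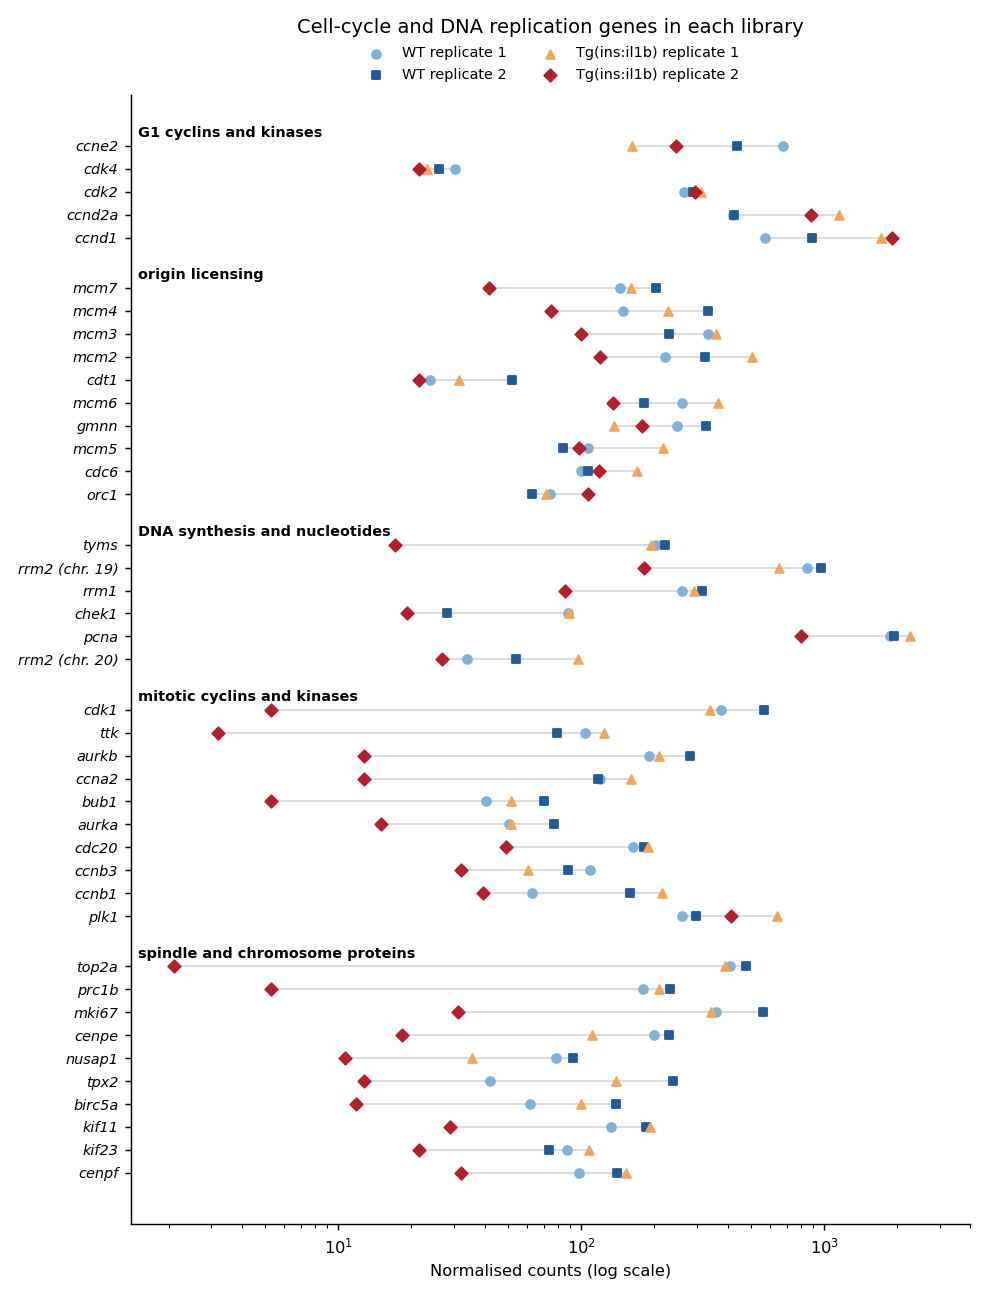
Normalised counts of the 41 cell-cycle and DNA replication genes in each of the 4 libraries, on a log scale and grouped by role, with circles and squares for WT and triangles and diamonds for Tg(ins:il1b). The diamond of Tg(ins:il1b) replicate 2 is the lowest point of 32 genes, and lies far to the left for top2a, cdk1, prc1b and ttk, while ccnd1 and ccnd2a have both transgenic points to the right of both WT points.

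The G1 cyclins were the members with the smallest p-values between the genotypes. The cyclin D1 gene ccnd1, on chromosome 7 (54400402 to 54409943), had 571 and 888 normalised counts in WT against 1715 and 1905 in Tg(ins:il1b). The cyclin D2 gene ccnd2a had 422.5 and 423.5 in WT against 1150.1 and 878 in Tg(ins:il1b). In both genes each transgenic library was above each WT library. The log2 fold change of ccnd1 was 1.34 (standard error, SE, 0.28, limma adjusted p = 0.086 and DESeq2 adjusted p = 0.00273), and that of ccnd2a was 1.25 (SE 0.26, limma adjusted p = 0.0853 and DESeq2 adjusted p = 0.00185).

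The cyclin E2 gene ccne2, whose product activates CDK2 on entry into S phase, lay the other way. It had 677 and 438 normalised counts in WT against 162 and 245 in Tg(ins:il1b), with each transgenic library below each WT library. Its log2 fold change was -1.45 (SE 0.37, limma adjusted p = 0.14 and DESeq2 adjusted p = 0.0143). The partner kinases differed little by comparison. The cdk2 gene had 264 and 288.5 in WT against 311 and 293 in Tg(ins:il1b), for a log2 fold change of 0.13 (SE 0.29), and cdk4 had 30.3 and 26 in WT against 23.2 and 21.4 in Tg(ins:il1b), for a log2 fold change of -0.32 (SE 0.63). The groups of both kinases did not overlap, but the fold changes were smaller than their standard errors.

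With all 4 libraries these 3 cyclins were the members that a test across all genes called, and only 1 of the tests did so. DESeq2 on the whole reads called ccnd1 and ccnd2a higher and ccne2 lower, 3 of 41 members against 6.59% of all genes, which is a share near that of the whole table. limma called 0 of the 41 members, against 1.63% of all genes, with 3 on the higher side and 5 on the lower side at an unadjusted p under 0.05 (7.95% and 6.45% of all genes). edgeR's quasi-likelihood test also called 0 of 41, against 1.28% of all genes, with 3 on the higher side and 3 on the lower side at an unadjusted p under 0.05 (8.12% and 5.89%).

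Leaving out 1 library ended most of these calls. DESeq2 called ccnd1 without WT replicate 2 (adjusted p = 0.00774) and without Tg(ins:il1b) replicate 1 (0.0175), but not without WT replicate 1 (0.254) or Tg(ins:il1b) replicate 2 (0.0643). It called ccnd2a and ccne2 only without Tg(ins:il1b) replicate 2, at adjusted p = 0.0144 and 0.0122. In that fit the other transgenic library stood alone and was taken to vary like WT.

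**Figure D2:**
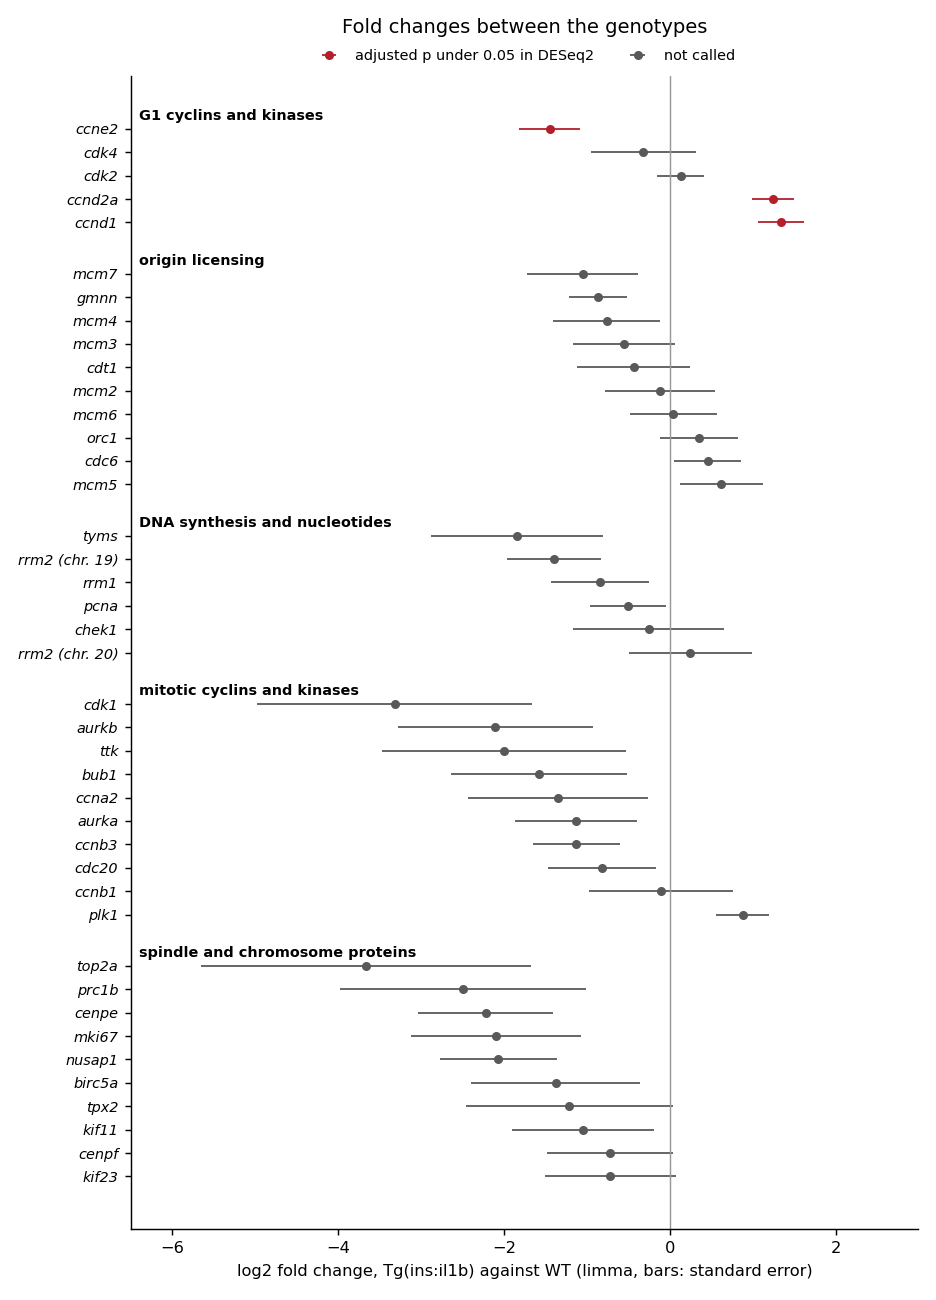
Log2 fold change of each member between Tg(ins:il1b) and WT (2 libraries each) from limma on log2(value + 1), with bars for the standard error and red points for an adjusted p under 0.05 in DESeq2. The 3 red points are ccnd1 at 1.34, ccnd2a at 1.25 and ccne2 at -1.45, and the bars are widest for top2a (-3.66) and cdk1 (-3.32), where the transgenic libraries differ most.

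Among the licensing genes, the subunits of the MCM helicase were not shifted alike in the transgenic libraries. The mcm2 gene had 221 and 322 normalised counts in WT against 502 and 119.7 in Tg(ins:il1b), so its highest and its lowest value both came from transgenic libraries. The same held for mcm3 (333 and 231 in WT, 359 and 99.4 in Tg(ins:il1b)) and for mcm6 (260 and 180.4 in WT, 365 and 136 in Tg(ins:il1b)). The mcm4 gene (149 and 333 in WT, 228 and 74.8 in Tg(ins:il1b)) and mcm7 (144 and 204 in WT, 161 and 41.7 in Tg(ins:il1b)) were within the WT range in Tg(ins:il1b) replicate 1 and below it in replicate 2. The mcm5 gene was the exception of the helicase, with 106.5 and 83.9 in WT against 216 and 98.3 in Tg(ins:il1b), and its value in Tg(ins:il1b) replicate 2 lay between those of WT. Genotypes overlapped for all 6 subunits, with log2 fold changes from -1.05 for mcm7 to 0.62 for mcm5.

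Of the loading factors, cdc6 and orc1 were not low in Tg(ins:il1b) replicate 2. The cdc6 gene, which encodes a loader, had 100.1 and 106 normalised counts in WT against 169.8 and 119 in Tg(ins:il1b). The orc1 gene of the origin recognition complex had 74.4 and 62.7 in WT against 71.8 and 107 in Tg(ins:il1b). They were above the WT mean in that library by 0.20 for cdc6 and 0.64 for orc1 on the log2 scale, and their log2 fold changes between the genotypes were 0.46 (SE 0.40) and 0.35 (SE 0.47). The loader gene cdt1, at 23.9 and 52.1 in WT against 31.3 and 21.4 in Tg(ins:il1b), was within the WT range in replicate 1 and just below it in replicate 2. Its inhibitor geminin, from gmnn, had 249 and 325 in WT against 136 and 178.5 in Tg(ins:il1b), with both transgenic libraries below WT and a log2 fold change of -0.86 (SE 0.35, unadjusted p = 0.0458, limma adjusted p = 0.334).

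The 6 members grouped under DNA synthesis and nucleotide supply, with which the checkpoint kinase gene chek1 was placed, were all lowest in Tg(ins:il1b) replicate 2. The clamp gene pcna, a marker of cycling cells, had 1871 and 1936 normalised counts in WT against 2247 and 802.5 in Tg(ins:il1b). Thus 1 transgenic library was above WT and the other below it, and the log2 fold change was -0.50 (SE 0.46, limma adjusted p = 0.712). The thymidylate synthase gene tyms, which makes the thymidine nucleotide, had 202 and 222 in WT against 194 and 17.1 in Tg(ins:il1b), and the value of Tg(ins:il1b) replicate 2 was 11.3-fold below the lowest of the other 3 libraries. Its log2 fold change was -1.84 (SE 1.03, limma adjusted p = 0.496).

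Ribonucleotide reductase, which makes deoxyribonucleotides, had its lowest values in that library for the 3 members that encode its subunits. The gene of another small subunit, rrm2b, is no member and was lowest in WT replicate 1, at 809.2 and 985 normalised counts in WT against 1044 and 922 in Tg(ins:il1b). Its large subunit gene rrm1 had 259 and 313 normalised counts in WT against 292 and 85.5 in Tg(ins:il1b). The small subunit gene rrm2 on chromosome 19 (48003903 to 48010821) had 851 and 968 in WT against 652 and 182 in Tg(ins:il1b), with both transgenic libraries below WT and a log2 fold change of -1.40 (SE 0.57, unadjusted p = 0.0474, limma adjusted p = 0.338). The rrm2 gene on chromosome 20 had 34 and 54 in WT against 97 and 26.7 in Tg(ins:il1b), so its highest and lowest values were both transgenic, and how reads that fit both copies were counted is not given in the sources used here. The checkpoint kinase gene chek1, which holds cells with damaged or unfinished DNA out of mitosis, had 88.2 and 28 in WT against 88.9 and 19.2 in Tg(ins:il1b), and WT replicate 2 minus WT replicate 1 was -1.62 on the log2 scale.

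The members among the mitotic cyclins and kinases, with 1 exception, were also lowest in Tg(ins:il1b) replicate 2. The master kinase of mitosis, cdk1, had 375 and 564 normalised counts in WT against 338 and 5.3 in Tg(ins:il1b), the last of which rests on 5 reads (95% Poisson interval 1.62 to 11.7 reads). Tg(ins:il1b) replicate 2 was thus 63.7-fold below the lowest of the other 3 libraries, while Tg(ins:il1b) replicate 1 was near the lower WT value. Across genotypes the log2 fold change was -3.32 (SE 1.65, limma adjusted p = 0.434), and the standard error reflects the spread between the transgenic libraries. Poisson intervals cover counting error only, and reads copied by PCR are not independent molecules.

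The cyclin A2 gene ccna2 had 119 and 118 normalised counts in WT against 159.7 and 12.8 in Tg(ins:il1b), and its value in Tg(ins:il1b) replicate 2 was 9.2-fold below the next. The cyclin B gene ccnb1 had 62.5 and 158 in WT against 215 and 39.5 in Tg(ins:il1b), with the WT libraries themselves more than 1 apart on the log2 scale. The ccnb3 gene (108 and 87.8 in WT, 60.6 and 32.1 in Tg(ins:il1b)) was below WT in both transgenic libraries, at a log2 fold change of -1.13 (SE 0.53, limma adjusted p = 0.405). With all 4 libraries these 3 cyclins passed the test in none of limma, edgeR and DESeq2, and in limma their unadjusted p was above 0.05. Without Tg(ins:il1b) replicate 1, DESeq2 called ccna2 lower, at a log2 fold change of -3.19 (adjusted p = 0.0124).

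Among the Aurora kinases, aurkb, the kinase of the chromosomal passenger complex, had 189 and 279.8 normalised counts in WT against 208 and 12.8 in Tg(ins:il1b). The spindle pole kinase gene aurka had 50.5 and 77.2 in WT against 51.5 and 15 in Tg(ins:il1b). Both were within the WT range in Tg(ins:il1b) replicate 1 and below it in replicate 2. The spindle checkpoint kinases had the same lowest library, with ttk at 104 and 79.1 in WT against 124 and 3.2 in Tg(ins:il1b) and bub1 at 40.4 and 70.4 in WT against 51.5 and 5.3 in Tg(ins:il1b). Their values in Tg(ins:il1b) replicate 2 rest on 3 and 5 reads. The cdc20 gene, whose product activates the ubiquitin ligase that ends mitosis, had 163 and 180.4 in WT against 189 and 49.2 in Tg(ins:il1b).

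The Polo kinase gene plk1 was the mitotic gene that did not follow this pattern. It had 261 and 297 normalised counts in WT against 638 and 414 in Tg(ins:il1b), above WT in both transgenic libraries. Its log2 fold change was 0.88 (SE 0.32, unadjusted p = 0.0315, limma adjusted p = 0.282). By its span plk1 overlaps another gene of the table, si:ch211-14k19.12, and reads of overlapping genes cannot be told apart here. The same applies to 13 of the 41 members in all, among them ccne2, cdk2, cdk4 and gmnn.

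All 10 genes of spindle and chromosome proteins were lowest in Tg(ins:il1b) replicate 2. The topoisomerase gene top2a, whose product untangles sister chromosomes, had 408 and 475 normalised counts in WT against 389 and 2.1 in Tg(ins:il1b), the last of which is 2 reads (95% Poisson interval 0.242 to 7.22 reads). The proliferation marker mki67 had 360 and 559 in WT against 344 and 31 in Tg(ins:il1b). Both were slightly below WT in Tg(ins:il1b) replicate 1 and far below it in replicate 2, so that the genotypes did not overlap. Their log2 fold changes were -3.66 (SE 1.99, limma adjusted p = 0.477) and -2.10 (SE 1.02, limma adjusted p = 0.425).

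The cytokinesis gene prc1b, which bundles the microtubules of the midzone, had 179 and 232.5 normalised counts in WT against 209 and 5.3 in Tg(ins:il1b), 33.8-fold below the next library. The survivin gene birc5a of the passenger complex had 61.5 and 139 in WT against 100.1 and 11.8 in Tg(ins:il1b). The spindle assembly gene tpx2 had 42.2 and 239 in WT against 139.5 and 12.8 in Tg(ins:il1b), with a gap of 2.48 on the log2 scale between the WT libraries. These genes were within the WT range in Tg(ins:il1b) replicate 1. The motors kif11 (132 and 184 in WT, 192 and 28.9 in Tg(ins:il1b)) and kif23 (87.3 and 73.3 in WT, 107 and 21.4 in Tg(ins:il1b)), and the kinetochore gene cenpf (97.4 and 139.9 in WT, 153 and 32.1 in Tg(ins:il1b)), were above both WT libraries in Tg(ins:il1b) replicate 1.

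Both transgenic libraries were below WT for 2 further spindle genes. The kinetochore motor gene cenpe had 199 and 231 normalised counts in WT against 110.2 and 18.2 in Tg(ins:il1b), for a log2 fold change of -2.22 (SE 0.82, unadjusted p = 0.0325, limma adjusted p = 0.285). The spindle microtubule gene nusap1 had 79 and 92.6 in WT against 35.4 and 10.7 in Tg(ins:il1b), for a log2 fold change of -2.07 (SE 0.71, unadjusted p = 0.0245, limma adjusted p = 0.25). In all, the genotypes did not overlap for 5 members that were higher in Tg(ins:il1b) and 11 that were lower, against 22.3% and 22.1% of all genes. The 5 were ccnd1, ccnd2a, plk1, cdc6 and cdk2, and the share of the 11 was 26.8% of the members, near that of the whole table.

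Set against the WT mean, each transgenic library gave a different account of the members. In Tg(ins:il1b) replicate 1 the median difference over the 41 genes was 0.11 on the log2(value + 1) scale, with 3 genes more than 1 below WT (11.3% of all genes) and 6 more than 1 above (11.4% of all genes). In Tg(ins:il1b) replicate 2 it was -1.72, with 29 genes more than 1 below WT (10.7% of all genes), 10 more than 3 below (1.64% of all genes) and 2 more than 1 above (15.6% of all genes). The median over all genes tested was 0.017 and -0.0038 for these 2 libraries. WT replicate 2 minus WT replicate 1 had a median of 0.22 over the members. Without regard to sign, the WT libraries differed by a median of 0.39.

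**Figure D3:**
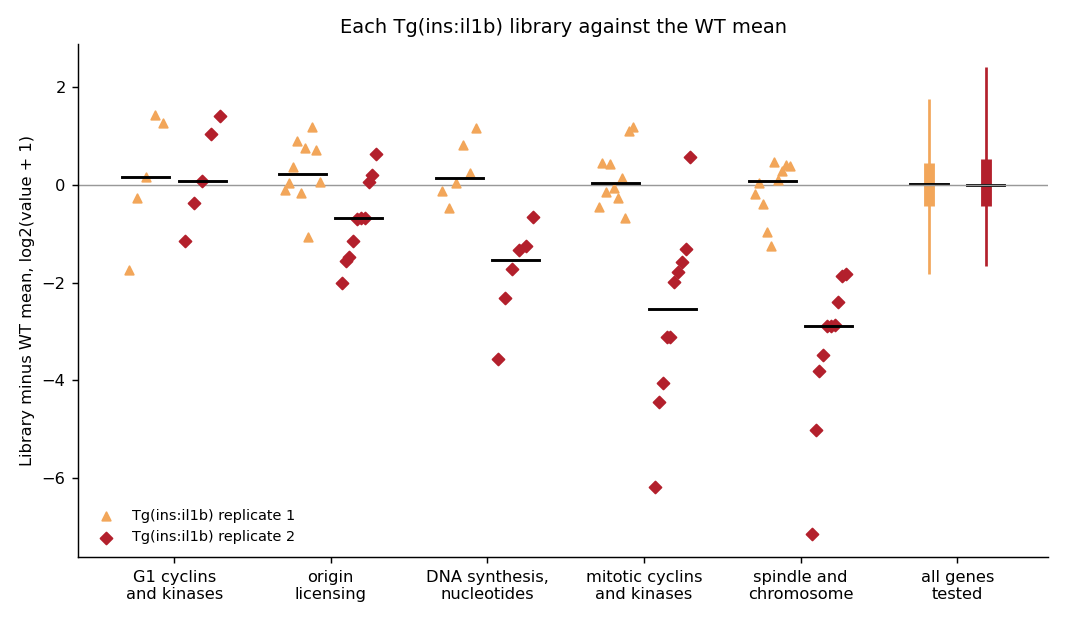
Difference of each Tg(ins:il1b) library from the WT mean on the log2(value + 1) scale for every member, by role, with a black line at the median of each role, and at the right the 25th to 75th (thick bar) and 5th to 95th (thin line) percentiles of all genes tested. The medians of Tg(ins:il1b) replicate 1 stay near 0 in every role, whereas those of replicate 2 go from 0.09 for the G1 genes through -0.68 and -1.53 for licensing and synthesis to -2.55 and -2.89 for the mitotic kinases and the spindle genes.

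The median difference in Tg(ins:il1b) replicate 2 fell from the G1 role to the mitotic roles. It was 0.09 for the 5 G1 genes, -0.68 for the 10 licensing genes and -1.53 for the 6 synthesis genes. For the 10 mitotic cyclins and kinases it was -2.55, and for the 10 spindle and chromosome genes -2.89. In Tg(ins:il1b) replicate 1 the same medians were 0.17, 0.22, 0.14, 0.05 and 0.07. This order was seen in 1 library, and no test was made of it. In that library the G1 genes went both ways, at 1.42 for ccnd1, 1.05 for ccnd2a and 0.09 for cdk2. The other G1 genes were at -0.38 for cdk4 and -1.15 for ccne2. The summed normalised counts of the 20 mitotic genes were 3118 and 4277 in WT against 3814 and 763 in Tg(ins:il1b). These sums put replicate 2 of Tg(ins:il1b) at 20.6% and replicate 1 at 103% of the WT mean. Without plk1, which was set aside after its values were seen, the sums of the other 19 were 2857 and 3979.7 in WT against 3176.5 and 349.5 in Tg(ins:il1b), which put replicate 2 at 10.2% and replicate 1 at 92.9% of the WT mean. The 16 licensing and synthesis genes summed to 4967 and 5419.9 in WT against 5811 and 2128 in Tg(ins:il1b), and the 5 G1 genes to 1965 and 2064 in WT against 3361 and 3343 in Tg(ins:il1b).

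The call rate among members depended on which transgenic library was in the fit. Without Tg(ins:il1b) replicate 1, DESeq2 called 14 members lower (2.59% of all genes) and ccnd1 higher (3.84% of all genes). The 14 were pcna, tyms and rrm2 on chromosome 19 of DNA synthesis, cdk1, ccna2, aurkb and ttk of the mitotic kinases and cyclins, and mki67, top2a, birc5a, kif11, tpx2, cenpe and prc1b of the spindle and chromosomes. edgeR called 8 of these lower (0.681% of all genes), and limma called 0, with 27 members at an unadjusted p under 0.05 (15.5% of all genes). Without Tg(ins:il1b) replicate 2, DESeq2 called ccnd2a higher (1.73% of all genes) and ccne2 lower (2.3% of all genes), and edgeR and limma called 0, with 6 and 5 members at an unadjusted p under 0.05 (13.0% and 12.4% of all genes). Each of these fits sets 1 transgenic library against WT and assumes that it varies like WT, so they compare libraries and not genotypes.

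The median log2 fold change of the members moved with the same choice. With all 4 libraries it was -0.84 in limma, with 32 of the 41 genes below 0, beside a median of -0.0094 over all genes tested. Without Tg(ins:il1b) replicate 1 it was -1.72, and without Tg(ins:il1b) replicate 2 it was 0.11. The median was negative under every scaling tried with all 4 libraries. In 19 members the sign of the fold change turned when some library was left out, and in 22 it did not. It turned for 16 members without Tg(ins:il1b) replicate 2 and for 2 without Tg(ins:il1b) replicate 1. Without WT replicate 1 it turned for 2, and without WT replicate 2 for 5.

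The relative abundance of the members within a library was also least alike for Tg(ins:il1b) replicate 2. Over the 41 genes, log2 values correlated at 0.88 between the WT libraries and 0.84 and 0.85 between each of them and Tg(ins:il1b) replicate 1. The correlation was 0.54 and 0.47 between the WT libraries and Tg(ins:il1b) replicate 2, and 0.62 between the transgenic libraries. Over all genes tested, the transgenic libraries correlated at 0.92 and the WT libraries at 0.94. These values are across genes, which are not independent replicates, and are given as a description.

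Per kilobase of gene model, the level of pcna was the highest of the members in WT, at 1316 normalised counts per kilobase. The rrm2 gene on chromosome 19 came next at 373, followed by cdk1 at 343, ccnd2a at 273 and ccne2 at 258. The marker mki67 lay at 56.1 on this scale. At the low end were cdk4 at 8.31, cenpf at 12.95 and bub1 at 14.4. Of the 6 synthesis genes, pcna, rrm2 on chromosome 19 and tyms were thus among the highest, and the copy of rrm2 on chromosome 20, at 17.9, was among the lowest.

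Other genes of the cycle, from lists that do not hold the members, were looked at by library in the same way. Of 164 such genes tested, limma called 1 (myca), edgeR 0 and DESeq2 4 (myca, umps, cdkn1bb and spc25). The shares of all genes called were 1.63%, 1.28% and 6.59%. At an unadjusted p under 0.05 in limma, 7 were on the higher side and 11 on the lower side (7.95% and 6.45% of all genes). The gene called by limma was myca, 1 of the zebrafish genes of the growth regulator MYC, which had 530 and 392 normalised counts in WT against 1287 and 1639 in Tg(ins:il1b). Each transgenic library was above each WT library, and myca rose by 1.67 on the log2 scale (SE 0.27, limma adjusted p = 0.0469, edgeR 0.0526, DESeq2 2.46e-05). Its call in limma was lost with a pseudocount of 0.5. It was also lost when any library was left out, but those fits lost nearly all calls of the whole table. They can therefore not single out myca.

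**Figure D4:**
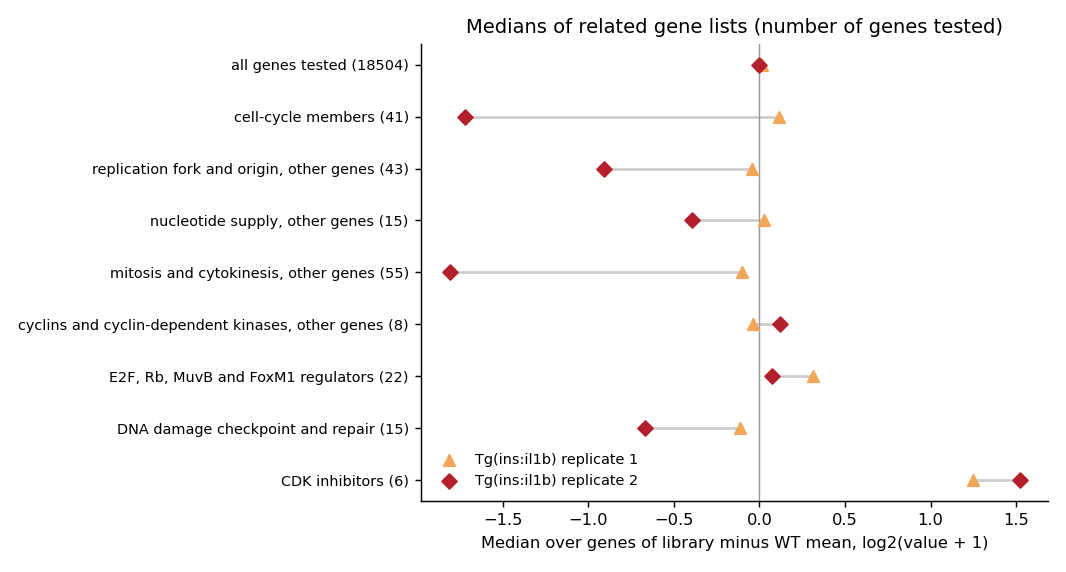
Median over the genes of each list of the difference between each Tg(ins:il1b) library and the WT mean on the log2(value + 1) scale, with triangles for replicate 1, diamonds for replicate 2 and the number of genes tested in parentheses. The 2 symbols are far apart for the members (0.11 and -1.72) and for the other mitosis genes (-0.10 and -1.81), and close together at 0.31 and 0.07 for the regulators of the E2F group.

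The other genes of mitosis and cytokinesis were distributed over the libraries much as the members were. Of 55 tested, 46 were lowest in Tg(ins:il1b) replicate 2 (27.2% of all genes). There 14 were more than 3 below WT on the log2 scale (1.64% of all genes). The median difference from WT was -0.10 in Tg(ins:il1b) replicate 1 and -1.81 in replicate 2. The chromatin genes hmgb2a and hmgb2b, the most abundant of the list, had log2 fold changes of -0.014 (SE 0.20) and -0.31 (SE 0.21). DESeq2 called spc25, a kinetochore gene, lower at an adjusted p of 0.0498. The kinetochore gene ndc80 and the spindle genes hmmr and aspm had 0 reads in Tg(ins:il1b) replicate 2, where 3 reads make 3.21 normalised counts. In the WT libraries they had 39.5 to 194 normalised counts. The melk gene also had 0 reads there, at 8.3 and 36.7 normalised counts in WT. The nek2 gene went the other way, with 66.1 and 18.3 in WT against 97 and 208 in Tg(ins:il1b). In limma the log2 fold change was below 0 for 49 of the 55. The genes spc25, ndc80, hmmr, aspm, melk and nek2 were picked after their values were seen.

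The medians of the other replication genes lay nearer to WT. Of 43 tested, 35 were lowest in Tg(ins:il1b) replicate 2 (27.2% of all genes). The medians were -0.041 and -0.91 in replicates 1 and 2 of Tg(ins:il1b). The single-strand binding gene rpa1 had 2357 and 1410.5 normalised counts in WT against 1834 and 981 in Tg(ins:il1b), and the fork protection gene timeless had 1048 and 926 in WT against 1083 and 1004.5 in Tg(ins:il1b). Genotypes overlapped for both. Of 15 nucleotide supply genes, 8 were lowest in Tg(ins:il1b) replicate 2 (27.2% of all genes), with medians of 0.025 and -0.39. The 2 most abundant, the nucleoside diphosphate kinase gene nme2b.1 and the guanine nucleotide gene impdh1b, had log2 fold changes of -0.37 (SE 0.24) and -0.50 (SE 0.26). In the same list the thymidine kinase gene tk1, picked after its values were seen, had 374 and 590.4 in WT against 349.7 and 11.8 in Tg(ins:il1b). The umps gene of this list went the other way, with 271 and 375 in WT against 1198 and 858 in Tg(ins:il1b). DESeq2 called it higher (adjusted p = 0.000156). In limma the log2 fold change was below 0 for 9 of the 15.

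The lists of E2F-group regulators and of other cyclins and CDKs had medians near WT in both transgenic libraries. The 22 regulators of the E2F, Rb, MuvB and FoxM1 group had medians of 0.31 and 0.07 in replicates 1 and 2, and foxm1 itself was too low to test. The Rb-binding gene rbbp4 had a log2 fold change of 0.17 (SE 0.22). That of mycb was -0.071 (SE 0.57), but its transgenic libraries lay on opposite sides of WT. The mycb gene had 1987 and 1092 normalised counts in WT against 774 and 2540 in Tg(ins:il1b). Single regulators differed from the WT mean by -1.02 to 2.15 on the log2 scale in replicate 1 of Tg(ins:il1b). For replicate 2 the range was -4.03 for e2f8 to 3.88 for mycn. The 8 other cyclins and CDKs had medians of -0.035 and 0.12, and the cyclin E1 gene ccne1 had 443 and 343.5 in WT against 339 and 444.5 in Tg(ins:il1b), unlike ccne2. The kinase gene cdk7 had a log2 fold change of -0.25 (SE 0.26).

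The CDK inhibitors were higher in both transgenic libraries at the median, by 1.25 and 1.52 over 6 genes. Of these limma called 0 (1.63% of all genes) and DESeq2 1 (6.59% of all genes). The median rests in part on cdkn1cb, at 52.4 and 0 in WT against 47.5 and 19.2 in Tg(ins:il1b), within the WT range. It also rests on cdkn2a/b, which was low, at 5.5 and 4.8 in WT against 23.2 and 25.6 in Tg(ins:il1b). The p27 gene cdkn1bb had 643 and 722 normalised counts in WT against 1165 and 2143 in Tg(ins:il1b), with no overlap (limma adjusted p = 0.161, DESeq2 adjusted p = 0.0162), and the p21 gene cdkn1a had 242 and 81 in WT against 290.1 and 420 in Tg(ins:il1b) (limma adjusted p = 0.354). In limma the log2 fold change was below 0 for 2 of the 6, and single libraries lay below WT for cdkn1ba, at 42.2 and 42.4 in WT against 23.2 and 55.6 in Tg(ins:il1b), and for cdkn2c, at 39.5 and 35.7 in WT against 104 and 8.5 in Tg(ins:il1b). The 15 DNA damage genes had medians of -0.12 and -0.67.

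Markers of other cells differed between the libraries too. The summed counts of 8 α-cell and δ-cell markers were 119401 and 34852 in WT against 257839 and 1678958 in Tg(ins:il1b). Of the 8, limma called 2 higher, against 1.63% of all genes called in either direction. These were gcga and the ghrelin gene ghrl, which was listed with them. The sum was highest in Tg(ins:il1b) replicate 2, the library in which the mitotic genes were lowest. Most of the sum in that library was sst1.1, at 1076220 normalised counts. In both transgenic libraries the markers other than sst1.1 and sst1.2 were above both WT libraries. The somatostatin genes sst1.1 and sst1.2 lay between the WT values in Tg(ins:il1b) replicate 1. The 18 β-cell markers summed to 6652739 and 9159939 in WT against 3907320.1 and 3333155 in Tg(ins:il1b). Most of each sum was ins, at 5974287 and 8439952 in WT against 3359299 and 2930996 in Tg(ins:il1b). Of the 17 tested, 13 had a log2 fold change below 0 in limma. Of these, 3 (pcsk2, g6pcb and kcnj11) were called lower by limma, against 1.63% of all genes called in either direction. DESeq2 called 5 lower and 1 higher, against 6.59% of all genes. The 1 higher was insm1a, at 3201 and 3325.5 in WT against 5904 and 7106 in Tg(ins:il1b). The genes neurod1 and mnx1 were also above both WT libraries in both transgenic libraries. In each library 0 of the 18 were at 0 reads. This says little about the share of β-cells, since slc30a8 passed at 1.8 and 2.9 normalised counts in WT. Of the reads, insulin made up 18.5% and 24.5% in WT against 11.7% and 9.56% in Tg(ins:il1b).

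**Figure D5:**
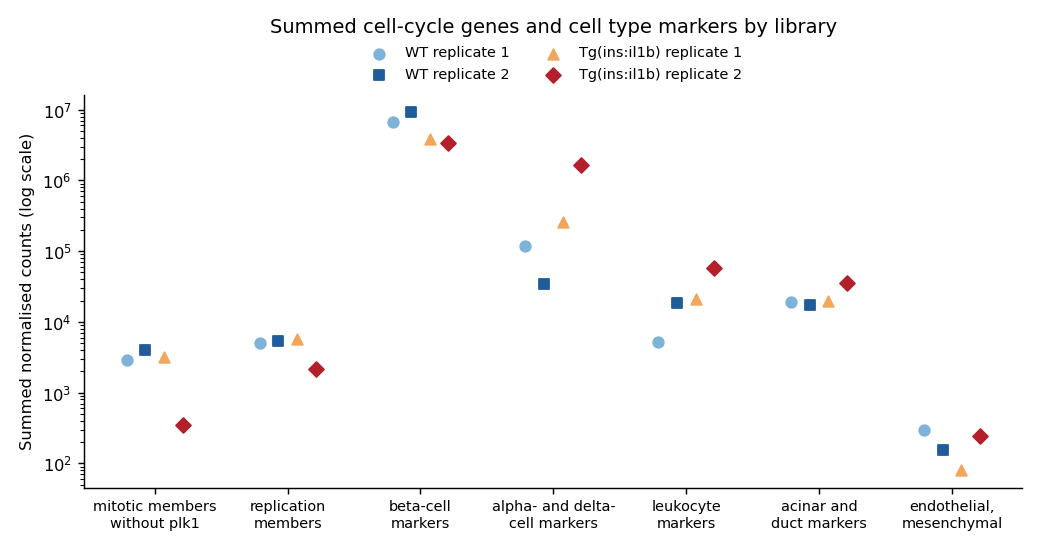
Summed normalised counts, on a log scale, of the mitotic members without plk1, of the replication members and of 5 lists of cell type markers, with 1 symbol per library. In Tg(ins:il1b) replicate 2 (diamonds) the mitotic sum is the lowest at 349.5 and the sum of α-cell and δ-cell markers the highest at 1678958.

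The 30 leukocyte markers summed to 5219 and 18206 in WT against 20746 and 56953 in Tg(ins:il1b), with 5, 4, 8 and 0 of them at 0 reads. Of the 20 tested, limma called 0 (1.63% of all genes), DESeq2 3 (mfap4, ctss2.2 and cybb, 6.59% of all genes) and edgeR 0 (1.28%). In limma 8 were higher at an unadjusted p under 0.05 (7.95% of all genes). Most of the leukocyte sum came from cd74a and cd74b, the invariant chain genes of antigen presentation, and without them the other 28 markers summed to 1553.9 and 1698 in WT against 2372 and 3547.5 in Tg(ins:il1b). The 20 acinar and duct markers summed to 19105.5 and 17208 in WT against 19829 and 35579.6 in Tg(ins:il1b), of which the epithelial genes krt8, krt18 and epcam made up 17678 and 9835 in WT against 16853.6 and 29149.8 in Tg(ins:il1b). The 12 acinar enzyme genes of the list had another order, with a sum of 1229.8 and 6947 in WT against 2063 and 3897 in Tg(ins:il1b), highest in WT replicate 2. The 10 endothelial and mesenchymal markers summed to 297 and 154 in WT against 80.8 and 242 in Tg(ins:il1b). The glucagon gene gcga, an α-cell hormone, had 7690.1 and 3665 in WT against 122372 and 383327 in Tg(ins:il1b). The part of α-cells, δ-cells, leukocytes and the others in the values of the cell-cycle genes was not tested.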

How the data were processed

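The mRNA of FACS-sorted β-cells was measured in 2 WT and 2 Tg(ins:il1b) libraries, grouped by the genotype in the labels. Paired-end reads (2×75 bp, HiSeq2500) were aligned by the authors to GRCz10 using GSNAP and Ensembl annotation 87. How reads were counted, with which strand setting, and which tool normalised them is not given in the sources used here. Reads of antisense or overlapping genes can therefore not be separated. The deposited table gives a signal per gene (normalised counts), and the length of the gene model, an other value that the authors deposited and that served for levels per kilobase. Divided by what 1 read is worth in each library (0.918 to 1.07), 100% of the values above 0 came within 0.1 of a whole read. Of the per-sample columns, 0 were left unused, and the table holds no fold changes or p-values.

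The 18504 genes that reached 10 normalised counts in 2 or more libraries were compared between genotypes, two-sided, using limma 3.58.1 (R 4.3.3). The scale was log2(value + 1), on which low genes show too small a change, the variance trend was used, and 2 residual degrees of freedom remained. Benjamini-Hochberg adjustment ran over all genes tested, and an adjusted p under 0.05 was taken as a call. DESeq2 1.42.0 and edgeR 4.0.16 were run on the whole reads, and all 3 were tested on simulated data. The simulation gave both transgenic libraries the same change, unlike many members here, so it does not bear on those members. Other pseudocounts (0.5 and 10), filters and scalings, a replicate block and leaving out each library were tried. Tables were joined with pandas 2.3.3, and matplotlib 3.10.9 in Python 3.11.15 drew the figures.

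The members and the gene lists were chosen with earlier results of these data known, so lists are described by counts and medians with no test. Every member was named. Of each other cell-cycle list, called genes and up to 2 more with the highest mean were named, marker genes were named where the text turns on them, and other names were picked after their values were seen. Some genes that this rule would name are not reported here.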

Additional observations from a re-analysis of the deposited data

How the results depend on the processing

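Each genotype had 2 libraries, and in Tg(ins:il1b) replicate 2, where many members were low, a value of 3.21 normalised counts or less rests on 3 reads or fewer. limma called 0 members in every setting tried, and DESeq2 called 3. Over all genes the count was 302 in limma, 1219 in DESeq2 and 13 without the variance trend, and it went from 0 to 1 as limma left out each library. Of the related cell-cycle genes, limma called 1, DESeq2 4, and edgeR, a pseudocount of 0.5 and the fit without the variance trend each 0, as did every fit of limma that left out a library. Leaving out each library, DESeq2 called from 0 to 15 members, 638 to 1189 genes in all and 2 to 25 related genes, and edgeR from 0 to 8, 1 to 512 and 0 to 6. These fits without a library in DESeq2 and edgeR were chosen after seeing the data.

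Without any library left out, the fold change turned for mcm2 (0.19 in DESeq2, 0.20 in edgeR), ccnb1 (0.21 in DESeq2 and 0.215 in edgeR) and mcm6 (-0.0061 with scaling outside the 10 most abundant genes), and it did so for no other member. Leaving out each library in limma gave ranges that crossed 0 for 19 members. They were pcna -1.24 to 0.24, mcm2 -1.15 to 0.91, mcm3 -1.47 to 0.37, mcm4 -1.56 to 0.037, mcm6 -0.67 to 0.75, ccna2 -3.11 to 0.43, ccnb1 -1.31 to 1.11, rrm1 -1.72 to 0.038, rrm2 on chromosome 20 -0.66 to 1.16, cdc20 -1.78 to 0.14, birc5a -2.87 to 0.11, kif11 -2.39 to 0.30, kif23 -1.85 to 0.42, tpx2 -2.88 to 0.46, ttk -4.45 to 0.45, cdt1 -0.98 to 0.11, chek1 -1.33 to 0.82, cenpf -1.83 to 0.38 and prc1b -5.02 to 0.036. The cause was not tested.

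Whether same-numbered samples were handled in pairs is not given in the sources used here. Across genes, the correlation of the deviations of same-numbered samples was 0.033, a value that cannot settle this. With a replicate block, limma called 0 members, 437 genes in all and 1 related gene, and 10 members had an unadjusted p under 0.05, as had 15.7% of all genes.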
